A study of Homo sapiens and Mus musculus with 41 samples.

Results

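The leptomeningeal derivative (Lep) of the LLC mouse carcinoma line was set against the parental line (Par) from which it was selected, over every gene that could be measured. Members were the 3 Lep and 3 Par libraries, 6 of the 41 libraries of the series, and the 13494 genes, of 23337 in the table and 18686 above 0 in any LLC library, that reached a normalized count of 10 in at least 2 LLC libraries. A normalized count is the number of reads assigned to a gene divided by a size factor of the library. LLC, Lewis lung carcinoma, arose in the lung of a C57/B6 mouse and is labelled a non-small-cell lung cancer. The series follows such lines through selection for growth in the leptomeninges, the membranes and fluid space around the brain and spinal cord, and the comparison asks which transcripts set the selected cells apart from the cells they came from.

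All lines carry a stable GFP marker. Lep is the leptomeningeal metastatic derivative, and 2 further stages of the same line serve here as context: the intermediate derivative (Int, 2 libraries), taken at a stage of selection before Lep, and a brain metastatic derivative (BrM, 3 libraries). Derivatives were rinsed out of the meningeal space of mice, grown on plastic in DMEM with serum until the culture was homogeneous for GFP, and then passaged again ahead of RNA extraction, and the values describe cultured cells and not cells in cerebrospinal fluid. The Par libraries are technical replicates, and the Int and Lep libraries a mixture of biological and technical ones that the labels do not tell apart, so p-values measure the spread between these libraries only. Cells of a rare type and low RNA per cell cannot be told apart in such bulk libraries.

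Tumour cells in cerebrospinal fluid meet little protein, glucose or iron, and complement, the cascade of blood proteins whose central component is C3, is known to open the barrier between blood and this fluid when the C3a fragment acts on the choroid plexus. Lipocalin-2, encoded by Lcn2, binds iron-carrying siderophores and returns them to cells through its receptor, encoded by Slc22a17. NF-kB is a transcription factor family held in the cytoplasm by inhibitors of the IkB family, and its targets include chemokines, C3, Lcn2 and its own inhibitors.

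Reads assigned to genes numbered 26787313 to 49473662 in Lep and 29588710 to 52876610 in Par libraries. Lep libraries differed more among themselves than Par libraries did, with a chi-square per degree of freedom of 56.25 to 99.55 for pairs of Lep libraries and 12.33 to 30.13 for pairs of Par libraries, so no library was a copy of another. Of the labelled tumour type, keratin was present and the epithelial surface markers Cdh1 and Epcam were nearly absent: Krt8 had 2317, 863 and 3543 normalized counts in Lep libraries and 4290, 3835 and 3091 in Par libraries, while Cdh1 (E-cadherin) and Epcam stayed under 5 in all 6. Markers of host cells differed by type. Under 10 normalized counts in all 6 libraries were 10 of 12 choroid plexus and ependyma markers and 11 of 14 lymphocyte markers in the table. At 10 or more in every Lep library were 8 of 16 fibroblast and pericyte markers and 6 of 17 neural and glial markers, and in every Par library 9 and 8. Lep replicate 2 was the highest library for several host cell markers. Csf1r, a macrophage receptor, had 1.28, 48.6 and 0.703 normalized counts in Lep libraries and 0 to 0.664 in Par libraries. Ptprc, the CD45 antigen of blood cells, had 5.11, 21.7 and 4.92 in Lep libraries and 0 to 0.711 in Par libraries. The 14 macrophage and microglia markers in the table summed to 255 to 984 in Lep and 546 to 727 in Par libraries. Most of the Par sum was Tmem119 (408, 338 and 215) and Cd68 (226, 201 and 239), so the sum says little of the other markers. Results that move without Lep replicate 2 are given below with and without it.

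Of the 13494 genes tested, 2734 (20.3%) passed an adjusted p of 0.05 with a fold change of at least 2 (limma on log2 of the normalized count plus 1, Benjamini-Hochberg adjustment over all genes tested, the 11 LLC libraries in 1 fit). Of these, 1079 genes (8.0%) rose and 1655 (12.3%) fell in Lep. The count called in each gene list below is to be read against these shares. All 3 Lep libraries lay above all 3 Par libraries for 31.5% of genes tested, and below them for 31.8%. More losses than gains were deep: 163 genes fell and 49 rose by 16-fold or more, and 40 genes were at 0 in all 3 Lep libraries against 13 at 0 in all 3 Par libraries. The median log2 fold change over all genes was 0.003. Without Lep replicate 2, 942 genes rose and 1557 fell. Genes among the largest rises were inflammatory (Nos2, Lcn2, C3, Csf3, Ccl20) or belonged to no common family (Afp, Selp, Cyp1a1, Pou2f2, Slc6a4, U90926), and the 12 deepest losses (among genes with a mean of at least 100 and no overlap, predicted genes left out) were matrix genes (Bgn, Col4a5), HOX B genes (Hoxb2, Hoxb3, Hoxb9), the imprinted genes H19 and Grb10, and Tmem47, Armcx2, Sox11, Sdk1 and Pcdhga10.

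**Figure D1:**
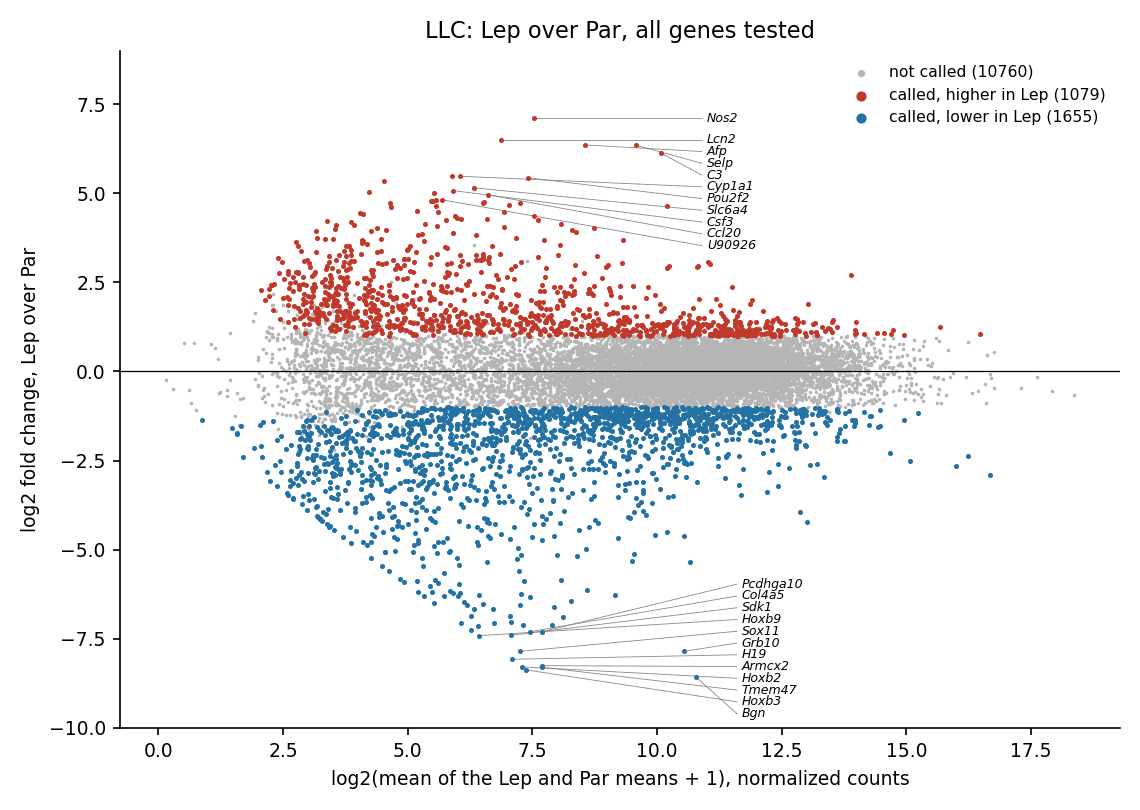
Log2 fold change of Lep over Par (y axis) against the log2 mean normalized count of both groups plus 1 (x axis), 1 point per gene for the 13494 genes tested, red where Lep was called higher and blue where it was called lower. The labelled genes that rose lie between 4.82 and 7.11 on the log2 scale, and the lower branch holds more points and reaches farther, to -8.58 for Bgn.

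C3 and Lcn2 were both near absent in the parental line and abundant in Lep. C3 had 861, 4236 and 1352 normalized counts in Lep libraries, against 29.2, 21.9 and 20.2 in Par libraries. Every Lep library stood above every Par library, and Lep replicate 2 held the highest value. C3 rose by 6.12 ± 0.67 on the log2 scale (± is the standard error throughout; limma, adjusted p = 2.4e-05), and by 5.46 without Lep replicate 2. Lcn2 had 194, 234 and 261 in Lep libraries, against 0.711, 3.32 and 1.19 in Par libraries, a rise of 6.50 ± 0.45 (adjusted p = 8.54e-07). The 3 Lep libraries lay close together for Lcn2.

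Both genes were already high at the intermediate stage and low in the brain derivative. C3 had 897 and 1558 normalized counts in Int libraries and 0, 6.55 and 1.65 in BrM libraries, so that Lep over Int was 0.53 (adjusted p = 0.586) and Lep over BrM 9.29 (adjusted p = 1.06e-06) in the same limma fit. Lcn2 had 290 and 344 in Int libraries and 6.34, 6.55 and 1.65 in BrM libraries, with Lep over Int at -0.47 (adjusted p = 0.468) and Lep over BrM at 5.44 (adjusted p = 3.95e-06). Over all genes, 22.5% were called between Lep and Int (8.47% higher, 14% lower in Lep) and 18.0% between Lep and BrM (11.1% higher, 6.85% lower). These comparisons use the same 3 Lep libraries as the one with Par.

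Around C3 most of the other complement genes tested did not rise with it. Of 16 complement genes tested of 36 listed, 2 rose and 7 fell, against 8.0% and 12.3% of all genes. Their median log2 fold change was -0.94. With no filter on low values, 32 were tested, 5 rose and 7 fell, and the median was 0.03. Over all alternatives 1 to 5 rose and 5 to 9 fell. C3ar1, the receptor of the C3a fragment, had 277, 342 and 194 normalized counts in Lep libraries and 138, 135 and 112 in Par libraries, a rise of 1.04 ± 0.24 (limma, adjusted p = 0.0034). That call was lost without Lep replicate 2 (0.85) and without Par replicate 3 (0.95), so C3 alone rose without Lep replicate 2. C1s, a protease that starts the classical pathway, had 296, 374 and 626 in Lep libraries and 2328, 2216 and 2385 in Par libraries, and it fell by 2.49 on the log2 scale. Its partner C1ra fell by 1.90, and Masp1, of the lectin pathway, by 2.26. Clu (clusterin), an inhibitor of the terminal complex, fell by 2.97 ± 0.45 (limma, adjusted p = 0.000233), and by 2.25 without Lep replicate 2. Cfb, the alternative pathway partner of C3, had 220, 409 and 257 in Lep libraries and 217, 252 and 225 in Par libraries, and these ranges overlapped (log2 fold change 0.30, adjusted p = 0.281). C8g, a part of the membrane attack complex, was low throughout, with 0 to 12.7 in Lep and 20.2 to 35.2 in Par libraries, and its log2 fold change of -2.91 came to -1.97 when Lep replicate 2 was left out and to -3.86 when Lep replicate 3 was.

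Iron genes moved in both directions. Of 21 tested of 24 listed, 4 rose and 4 fell, against 8.0% and 12.3% of all genes, with a median of 0.07. Tfrc, the transferrin receptor that takes up iron, had 24550, 36070 and 18980 normalized counts in Lep libraries, against 3902, 3943 and 4015 in Par libraries. The rise was 2.70 ± 0.28 (limma, adjusted p = 1.55e-05), and Tfrc was also above Int (5308 and 12200; Lep over Int 1.67, adjusted p = 0.00095) and BrM (9812 to 12940; Lep over BrM 1.13, adjusted p = 0.00567). Slc39a8 (ZIP8), an importer of zinc, manganese and iron, rose by 2.44 ± 0.27, with 366, 458 and 232 in Lep libraries and 59.8, 68.4 and 57.1 in Par libraries. Slc40a1 encodes ferroportin, the only known exporter of cellular iron. It had 14.1, 8.95 and 6.33 in Lep libraries, against 174, 176 and 194 in Par libraries, and fell by 4.14 ± 0.44 (adjusted p = 1.95e-05). It was low in BrM as well (4.37 to 19.8) and at the parental level in Int (211 and 154).

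The receptor and the metalloreductases went different ways. Slc22a17, the lipocalin-2 receptor, had 12.8, 5.11 and 62.5 normalized counts in Lep libraries and 217, 184 and 188 in Par libraries, so it fell while its ligand rose (log2 fold change -3.49 ± 0.60, limma adjusted p = 0.000588; -2.73 without Lep replicate 2 and -4.42 without Lep replicate 3). Steap4, which reduces iron for uptake, was at 0 in all Par libraries and had 14.1, 28.1 and 14.1 in Lep libraries, which is at least 23.4-fold higher when 3 reads over the Par group are taken as the floor. Steap2 passed narrowly at -1.03 and lost the call without Lep replicate 1 (-0.94), Lep replicate 2 (-0.93) or Par replicate 3 (-0.98). Tfr2, under 11 in every library of both groups, was also called lower and lost its call without Lep replicate 1 or 2 or Par replicate 2 or 3, and without any of Lep replicate 1, Lep replicate 2 or Par replicate 3 the list held 2 lower genes. The ferritin chains Fth1 (-0.55) and Ftl1 (-0.28) did not reach the fold limit.

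NF-kB targets and cytokines formed the list with the largest share of higher genes, 23 of the 33 tested (38 listed), against 8.0% of all genes, and 3 fell. The median log2 fold change was 1.55. With genes of a mean under 50 left out, 14 of the remaining members rose. Cxcl1, a neutrophil attractant, had 3173, 3928 and 4315 normalized counts in Lep libraries and 494, 445 and 466 in Par libraries, a rise of 3.01 ± 0.13 (limma, adjusted p = 3.68e-08). Cxcl5, of the same chemokine group, had 2322, 1697 and 2380 in Lep libraries and 325, 258 and 234 in Par libraries. Ccl7, a monocyte attractant, had 2247, 3030 and 1023 in Lep libraries and 243, 255 and 269 in Par libraries. For all 3 chemokines the lowest Lep library stood well above the highest Par library, and Cxcl5 and Ccl7 rose by 2.96 and 2.90.

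Other secreted factors rose from low parental levels. Ccl20, the ligand of CCR6, had 72.8, 340 and 158 in Lep libraries and 2.85, 6.64 and 3.57 in Par libraries (4.96 ± 0.54, limma adjusted p = 2.44e-05). Csf3 (G-CSF), the growth factor of neutrophils, had 40.9, 247 and 64 in Lep libraries and 2.13, 0.664 and 2.38 in Par libraries, a rise of 5.07 ± 0.60 that was 4.33 without Lep replicate 2. Il6 was at 0 in the 3 Par libraries and had 17.9, 26.8 and 3.51 in Lep libraries, at least 20.1-fold higher against the same floor (the fitted log2 value of 3.74 was 4.52 without Lep replicate 3). Csf1, the macrophage growth factor, was high in both groups, with 15520, 21990 and 14820 in Lep libraries and 5784, 6454 and 6595 in Par libraries, and rose by 1.45 ± 0.15. Il1a had 15.3, 51.1 and 5.62 in Lep libraries and 0 to 2.13 in Par libraries, and its rise of 3.23 came to 2.45 when Lep replicate 2 was left out and to 3.94 when Lep replicate 3 was. Saa3, an acute-phase protein, rose by 2.78, and by 2.15 without Lep replicate 2. Nos2, the inducible nitric oxide synthase, rose most of all genes named: it had 143, 617 and 341 in Lep libraries, against 2.85, 1.99 and 0 in Par libraries, a rise of 7.11 ± 0.65 (adjusted p = 6.7e-06), or 6.52 without Par replicate 3.

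Genes of the NF-kB circuit itself moved unequally. Among the feedback inhibitors, Nfkbia (IkB-alpha) had 3326, 4311 and 3854 normalized counts in Lep libraries and 1252, 1386 and 1273 in Par libraries, and Tnfaip3 (A20) had 515, 684 and 647 in Lep libraries and 218, 163 and 162 in Par libraries. Both rose without overlap, by 1.55 ± 0.13 and 1.76 ± 0.20 (limma, adjusted p = 2.8e-06 and 2.89e-05). Nfkbie rose by 1.48, Nfkbiz by 1.27 and Birc3, an inhibitor of apoptosis, by 1.42. Of the transcription factor subunits, Rel had 267, 280 and 171 in Lep libraries and 39.1, 28.6 and 47.6 in Par libraries and rose by 2.60 ± 0.38, while Nfkb1 (0.54), Relb (0.17) and Nfkb2 (-0.11) were not called. Icam1, a leukocyte adhesion receptor, had 31.9, 49.9 and 29.5 in Lep libraries and 3.32 to 3.57 in Par libraries, a rise of 3.05.

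Not every cytokine rose. Ccl2, a monocyte attractant, had 7267, 7754 and 8944 in Lep libraries and 3774, 3933 and 4382 in Par libraries and stopped short of the fold limit at 0.98 (limma, adjusted p = 0.000301). Ptgs2 (COX-2), the inducible prostaglandin synthase, had overlapping ranges of 4705 to 17710 in Lep and 9075 to 22020 in Par libraries (log2 fold change -1.02, adjusted p = 0.0672). Il11, a cytokine of the IL-6 family, fell by 2.45 and Il33, an alarmin, by 3.27. Cxcl15 was all but silent in Lep with 3.83, 0 and 0.703, against 82.5, 73.7 and 69 in Par libraries; its log2 fold change was -5.23, and -5.86 without Lep replicate 1.

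The same genes differed in what Int and BrM did. Cxcl1 had 7195 and 6300 in Int libraries and 458 to 513 in BrM libraries, and Nfkbia had 5479 and 6066 in Int and 2151 to 2664 in BrM libraries. Nos2 had 1010 and 456 in Int libraries and 0 to 2.18 in BrM libraries. Against Int, Nos2 stood at -1.12 (limma, adjusted p = 0.221), Ccl20 at -0.95 (adjusted p = 0.214) and Csf3 at 0.75 (adjusted p = 0.384), none of them called. Against BrM the same 3 genes stood at 7.34, 5.50 and 4.17 (adjusted p = 6.48e-06, 1.48e-05 and 0.00025). For Nos2, Ccl20, Csf3 and Cxcl1, Int thus lay nearer to Lep than to Par, and BrM nearer to Par, while for Nfkbia all BrM libraries lay between the Par and the Lep libraries.

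**Figure D2:**
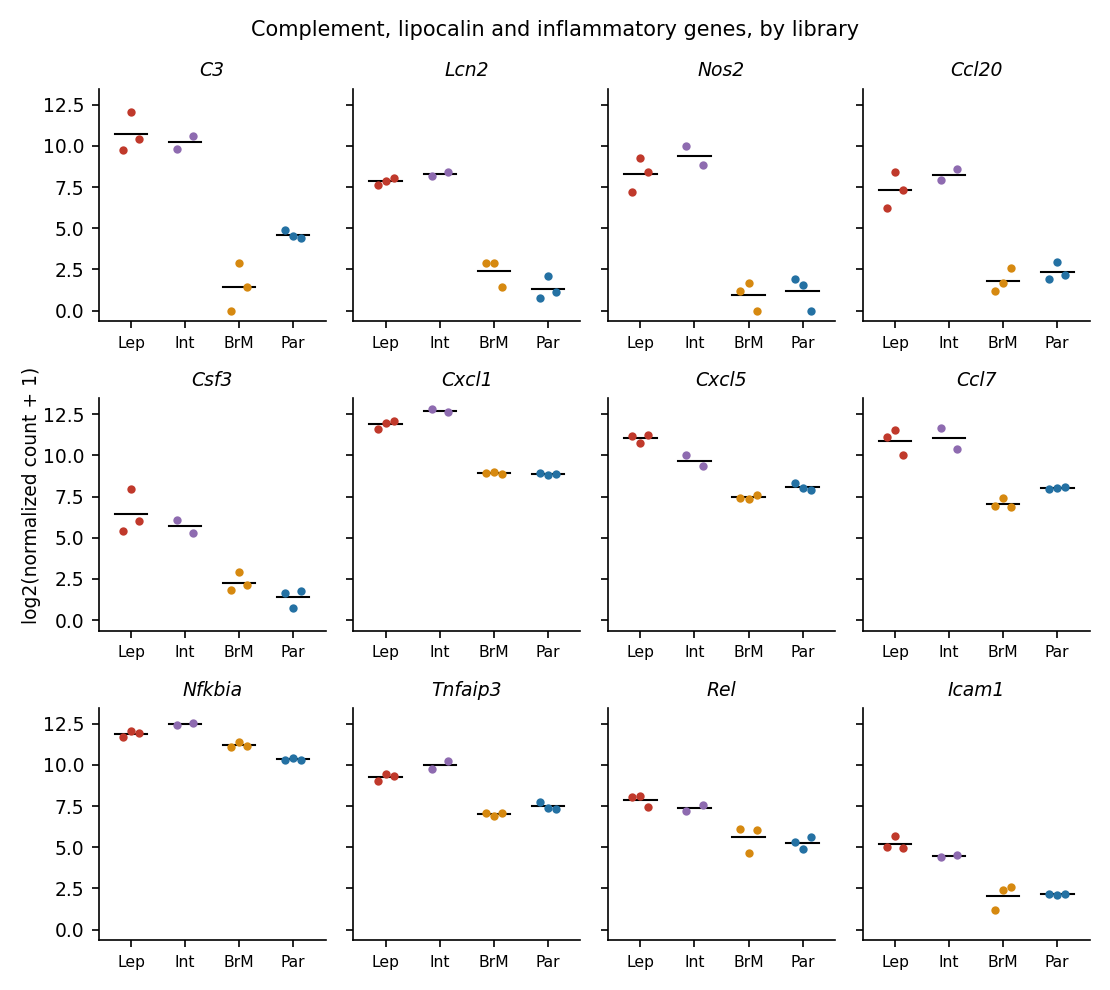
Log2 of the normalized count plus 1 (y axis) of 12 inflammatory genes in each LLC library, 1 panel per gene, with Lep, Int, BrM and Par from left to right, points for libraries and bars for the group means of the log2 values. In the panels of C3, Lcn2, Nos2 and Ccl20 the 3 Lep and 2 Int libraries lie far above the BrM and Par libraries.

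Macrophage markers moved in part with the inflammatory genes. Of 6 macrophage and microglia markers tested of 16 listed, 2 rose and 1 fell, against 8.0% and 12.3% of all genes. Mrc1, the mannose receptor, had 63.9, 166 and 31.6 normalized counts in Lep libraries and 9.96, 3.98 and 5.95 in Par libraries (3.29 ± 0.66, limma adjusted p = 0.00159; 2.67 without Lep replicate 2). Cx3cr1, at 12.8 or less in both groups, rose by 1.48 and lost the call without Lep replicate 1 or 2 or any Par library. Lyz2, lysozyme, had 137, 408 and 35.1 in Lep libraries and 65.4, 55.1 and 64.2 in Par libraries and was not called, and Tmem119 fell by 2.94. The part of such transcripts in the inflammatory result was not tested. Mrc1, Ptprc, Csf1r and Cx3cr1 stood above every Par library in each Lep library, as did 31.5% of all genes tested. Cd163 (0 to 3.83 in Lep, 5.98 to 9.96 in Par) and Tmem119 stood below. The other macrophage and microglia markers in the table overlapped, among them Cd68 (125 to 238 in Lep, 201 to 239 in Par). Itgam, Tyrobp, Aif1 and Laptm5 were at 0 in Lep replicate 3. Endothelial markers summed to 484 to 569 in Lep and 619 to 819 in Par libraries, with 1 of 4 tested higher (Pecam1). Most of that sum was Egfl7 (422, 360 and 522 in Lep libraries, 780, 738 and 575 in Par libraries). At low levels, Pecam1 (7.73 to 14.1 in Lep, 2.13 to 3.98 in Par), Cdh5 (3.51 to 23 in Lep, 1.19 to 2.66 in Par) and Tie1 (6.33 to 51.1 in Lep, 0 in Par) were higher in every Lep than in every Par library. So was Kdr, at 6.39 or less, and the same held for 31.5% of all genes tested. Vwf, Esam, Tek, Sox18 and Mmrn2 overlapped, Egfl7 was lower in every Lep library, and Cldn5, Erg and Sox17 were at 0. Lymphocyte markers summed to 45 to 58.8 in Lep and 53.8 to 77.3 in Par libraries, with none of 2 called. The choroid plexus marker Ttr was at 0 in all LLC libraries, and Enpp2 (autotaxin), which many other cells also make, fell by 3.93 (-4.52 without Lep replicate 3).

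Interferon-stimulated and antigen presentation genes moved less and in both directions. Of 29 interferon-stimulated genes tested of 37, 7 rose and 4 fell (median 0.12), against 8.0% and 12.3% of all genes. Ifih1 (MDA5), a sensor of double-stranded RNA, had 112, 42.2 and 55.5 normalized counts in Lep libraries and 15.7, 13.3 and 16.6 in Par libraries, a rise of 2.02 ± 0.39 (limma, adjusted p = 0.00127). Trim30a rose by 1.72, and Gbp3 by 1.86, a call that was lost without Lep replicate 2 or Par replicate 1 (1.47 in each case). Ifitm1, a membrane protein that blocks virus entry, had 57.5, 295 and 199 in Lep libraries and 1032, 959 and 844 in Par libraries and fell by 2.64 (log2 fold change -1.95 without Lep replicate 1), and Usp18, which removes ISG15 from proteins, fell by 2.04. Of 21 antigen presentation genes tested of 25, Psmb10, a subunit of the immunoproteasome, rose: it had 1030, 1378 and 1051 in Lep libraries and 334, 351 and 302 in Par libraries (1.80 ± 0.24, adjusted p = 0.000101). Tap1 (-1.24) and H2-M3 (-1.20) were called lower although Lep replicate 3 lay within the Par range for each, and both calls were lost without Lep replicate 1 or 2. B2m, the light chain of class I molecules, stayed at -0.37.

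Extracellular matrix genes were among the deepest losses. Of 34 collagen and matrix genes tested of 41, 17 fell, against 12.3% of all genes, and 4 rose, with a median of -0.94. Bgn (biglycan), a small proteoglycan that binds collagen, had 6.39, 19.2 and 4.22 normalized counts in Lep libraries, against 3560, 3524 and 3441 in Par libraries, and fell by 8.58 ± 0.42 (limma, adjusted p = 7.22e-08). Lum (lumican), of the same family, had 1.28, 0 and 0.703 in Lep libraries and 211, 191 and 224 in Par libraries. With 2 reads in Lep, that ratio was 308-fold, with a 95% interval of 84.9 to 2540 for counting error alone. Dcn (decorin) fell by 2.85 and was still present, at 178 to 330 in Lep and 1490 to 1947 in Par libraries. The 3 proteoglycans thus differed in how much was left in Lep.

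Among the fibrillar and network collagens, Col3a1 had 17100, 11970 and 27050 in Lep libraries and 120300, 108800 and 106700 in Par libraries, and fell by 2.66 ± 0.30 (limma, adjusted p = 2.83e-05). Col4a5, of basement membranes, had 0, 5.11 and 0.703 in Lep libraries and 348, 329 and 356 in Par libraries; its log2 fold change was -7.30, and -8.05 without Lep replicate 2. Col6a3 fell by 3.93 (-3.10 without Lep replicate 2, -4.76 without Lep replicate 3). Col1a1, below 70 in every library, fell by 1.99, and Col1a2 was not called (1.26, adjusted p = 0.074). Fn1, fibronectin, had 23510, 22000 and 28170 in Lep libraries and 166500, 176000 and 209200 in Par libraries, and fell by 2.91 ± 0.21 (adjusted p = 1.23e-06). BrM was at the same low level of Fn1 as Lep (15700 to 24370; Lep over BrM 0.25, adjusted p = 0.363), and Int was not (168300 and 101800).

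The matrix genes that rose were of another kind. Lama3, which encodes a chain of laminin-332, the laminin under epithelia, had 14.1, 60.1 and 19 in Lep libraries and 0.711, 1.33 and 1.19 in Par libraries (3.68; 3.07 without Lep replicate 2). Col12a1, which coats collagen fibrils, rose by 3.15. Col8a1 rose by 1.03 and lost the call without Lep replicate 1, and without Lep replicate 3 the list held 7 higher genes.

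Fibroblast markers were in part lower too. Of 10 meningeal fibroblast and pericyte markers tested of 16, 6 fell and 1 rose, against 12.3% and 8.0% of all genes. The markers summed to 15880 to 29830 in Lep and 112600 to 126600 in Par libraries. Most of these markers are matrix genes counted above (Lum, Dcn, Col3a1, Col1a1). Islr, a secreted protein of connective tissue cells, had 3.83, 0 and 66.1 in Lep libraries and 322, 260 and 221 in Par libraries, a log2 fold change of -5.27 that came to -3.88 when Lep replicate 2 was left out and to -6.92 when Lep replicate 3 was. Pdgfrb, the PDGF receptor of pericytes, rose: it had 394, 1228 and 429 in Lep libraries and 141, 124 and 120 in Par libraries (2.20 ± 0.37, limma adjusted p = 0.000478).

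Of 31 matrix protease and inhibitor genes tested of 34, 4 rose and 8 fell, against 8.0% and 12.3% of all genes. The median was -0.15, or -0.49 without Lep replicate 2. Adam19, a membrane metalloproteinase, had 3.83, 3.83 and 0.703 normalized counts in Lep libraries and 533, 455 and 430 in Par libraries, and fell by 7.11 ± 0.34 (limma, adjusted p = 7.22e-08). Int (1152 and 1008) and BrM (168 to 207) both kept Adam19. Adamts9, a protease that cleaves proteoglycans, had 3 reads over the Lep libraries and 224 to 324 normalized counts in Par libraries, a ratio of 269 with a counting interval of 91.8 to 1310. Plau, the urokinase that activates plasmin, had 1026, 4176 and 2951 in Lep libraries and 15240, 14340 and 13840 in Par libraries (-2.63; -2.04 without Lep replicate 1). Mmp9, a gelatinase, had 51.1, 306 and 120 in Lep libraries and 14.9, 10.6 and 14.3 in Par libraries (3.14; 2.49 without Lep replicate 2, 3.76 without Lep replicate 1). Mmp2 was called at 2.03 and an adjusted p of 0.0497, a call lost without Lep replicate 1 or 2 or any Par library. Timp3, an inhibitor of metalloproteinases, fell by 2.63 (-3.37 without Lep replicate 2, -1.60 without Lep replicate 3).

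Genes of epithelial and mesenchymal state did not move as blocks. Of 19 epithelial genes tested of 32, 6 rose and 4 fell (median 0.01), against 8.0% and 12.3% of all genes. Without Lep replicate 3 there were 7 that fell. The 6 that rose had low levels, and none of them was left when genes of a mean under 50 were dropped. Jup (plakoglobin), a linker of junctions to the cytoskeleton, had 7.67, 5.11 and 5.62 normalized counts in Lep libraries and 734, 583 and 530 in Par libraries, and fell by 6.44 ± 0.31 (limma, adjusted p = 7.22e-08). Krt18, a keratin, fell by 2.06 and the tight junction gene Ocln by 1.30. Dsp (desmoplakin), of desmosomes, had 44.7, 109 and 19 in Lep libraries and 7.11, 1.99 and 2.38 in Par libraries (3.42; 2.80 without Lep replicate 2, 4.03 without Lep replicate 3), and the epithelial transcription factor Grhl2 had 65.2, 62.6 and 34.4 in Lep libraries and 6.4, 3.98 and 4.76 in Par libraries (3.15).

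Of 22 mesenchymal genes, all of them tested, 4 rose and 4 fell, against 8.0% and 12.3% of all genes. Without Lep replicate 1 or Lep replicate 2 there were 2 that rose. Cdh2 (N-cadherin) had 10.2, 39.6 and 4.92 in Lep libraries and 521, 495 and 462 in Par libraries, with a log2 fold change of -5.15 ± 0.50 (limma, adjusted p = 1.03e-05; -5.92 without Lep replicate 2, -4.53 without Lep replicate 3). BrM kept it (590 to 803). Acta2, smooth muscle actin, had 488, 302 and 749 in Lep libraries and 39.8, 21.9 and 20.2 in Par libraries, a rise of 4.15 ± 0.39. Vim (vimentin) overlapped between the groups (-0.45). Lox, which cross-links collagen, was called at 2.69 and lost the call without Lep replicate 1 (2.74), Lep replicate 2 (2.21) or Par replicate 3 (2.15).

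Of 28 adhesion genes tested of 36, 4 rose and 6 fell, against 8.0% and 12.3% of all genes. The laminin-binding integrin chains fell: Itgb4 had 62.6, 69 and 50.6 normalized counts in Lep libraries and 254, 256 and 203 in Par libraries (-1.96 ± 0.29, limma adjusted p = 0.000232), with Itga6 at -1.44 and Itga3 at -1.29. Itgb8 fell by 2.63, a call lost without Lep replicate 2 (-1.92) or Par replicate 3 (-2.48). Alcam (CD166) fell by 1.90. Cd24a, a small glycoprotein of tumour and immune cells, had 97.1, 167 and 41.5 in Lep libraries and 9.25, 7.97 and 4.76 in Par libraries, a rise of 3.46 ± 0.73 (adjusted p = 0.00224). L1cam, a neural adhesion molecule that metastatic cells use to spread along vessels, had 437, 263 and 257 in Lep libraries and 113, 122 and 108 in Par libraries and rose by 1.43. L1cam belongs to a list of 20 genes reported for brain metastasis, of which 16 were tested, 5 rose and 2 fell (median 0.73, or 0.33 without Lep replicate 2). In that list Angptl4, a lipase inhibitor, had 2799, 3002 and 1030 in Lep libraries and 91.8, 102 and 58.3 in Par libraries, a rise of 4.63 ± 0.49 (adjusted p = 1.86e-05), and it stood 1.42 above BrM (adjusted p = 0.0307). Serpini1 (neuroserpin), an inhibitor of plasmin formation in brain, rose by 2.22, and Areg, a ligand of the EGF receptor, fell by 1.25.

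Of 31 cholesterol and fatty acid synthesis genes tested of 33, 15 fell, against 12.3% of all genes, and none rose, with a median of -1; 1 rose when Lep replicate 3 was left out. These genes are induced by the sterol-sensing SREBP factors. Fads2, a desaturase of polyunsaturated fatty acids, had 106, 143 and 217 normalized counts in Lep libraries, against 1750, 1555 and 1244 in Par libraries (-3.33 ± 0.26, limma adjusted p = 1.99e-06). Scd2, which makes monounsaturated fatty acids, had 6312, 7708 and 20800 in Lep libraries and 61900, 56110 and 55040 in Par libraries (-2.52 ± 0.32, adjusted p = 7.5e-05). Neither gene's ranges overlapped, and both were at near parental levels in BrM (838 to 1155 for Fads2, 45800 to 51080 for Scd2), with Lep over BrM at -2.79 and -2.29.

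Insig1 and Srebf2, which regulate the pathway, and further enzymes of it fell as well. Insig1, which holds SREBP back when sterols are plentiful, had 539, 726 and 1524 in Lep libraries and 4979, 4342 and 3883 in Par libraries (-2.38 ± 0.28, limma adjusted p = 3.96e-05). Scd1 fell by 1.96, Fads1 by 1.92 and Acss2, which makes acetyl-CoA from acetate, by 2.00. Srebf2 itself fell by 1.08, a call lost without Lep replicate 1. The fall was not shared by every step: Sqle (-0.44), squalene epoxidase, missed the fold limit, and Fasn, the fatty acid synthase, had 23060, 24690 and 14740 in Lep libraries and 11120, 11420 and 12330 in Par libraries (0.81, adjusted p = 0.00216).

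Targets of p53, the tumour suppressor that halts the cycle or starts apoptosis after damage, were lower in part. Of 26 tested of 27, 9 fell, against 12.3% of all genes, and 2 rose (median -0.74). Cdkn1a (p21), the inhibitor of cyclin-dependent kinases, had 1867, 3793 and 2427 normalized counts in Lep libraries and 8754, 9535 and 9111 in Par libraries (-1.82 ± 0.20, limma adjusted p = 2.34e-05). Bbc3 (PUMA), a trigger of apoptosis, had 271, 253 and 517 in Lep libraries and 1216, 1597 and 1868 in Par libraries (-2.22 ± 0.26). Trp53inp1 had 142, 444 and 134 in Lep libraries and 2288, 2267 and 2355 in Par libraries (-3.49 ± 0.36). Lep and Par did not overlap for any of the 3. Int lay above every Par library for Cdkn1a (18710 and 21870) and Trp53inp1 (5933 and 4108), and for Bbc3 its values of 2131 and 1730 overlapped with Par. Pmaip1 (NOXA) fell by 2.10, or by 1.17 without Lep replicate 3. Fas, the death receptor, rose by 3.01 ± 0.36, with 81.8, 204 and 108 in Lep libraries and 11.4, 16.6 and 15.5 in Par libraries; Perp, the other gene that rose, lost its call without Lep replicate 1, Lep replicate 2 or Par replicate 3, which left 1. Trp53 (0.42) and Mdm2 (-0.74) were not called.

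Genes of amino acid supply and endoplasmic reticulum stress fell in part. Of 32 tested, 11 fell and none rose (median -0.74), against 12.3% and 8.0% of all genes. Without Lep replicate 1 there were 6 that fell, and without Lep replicate 2 there was 1 that rose. Lep replicate 3 was often the library closest to Par. Cth, which makes cysteine, had 344, 495 and 1064 normalized counts in Lep libraries and 3597, 4510 and 5753 in Par libraries (-3.00 ± 0.31, limma adjusted p = 1.88e-05), and Slc7a3, a transporter of cationic amino acids, had 101, 95.9 and 40.8 in Lep libraries and 1006, 1250 and 1612 in Par libraries (-4.09 ± 0.35). Fgf21, a hormone induced by amino acid stress, had 2.56, 0 and 19 in Lep libraries and 242, 327 and 455 in Par libraries (-6.32; -5.30 without Lep replicate 2, -7.46 without Lep replicate 3). Trib3, an inhibitory pseudokinase, had 833, 2163 and 7374 in Lep libraries and 7885, 11190 and 13040 in Par libraries (-2.14; -1.39 without Lep replicate 1, -2.96 without Lep replicate 3). The chaperone Hspa5 (BiP) overlapped (-0.21), and Asns, asparagine synthetase, stopped at -0.94.

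Proliferation genes leaned the other way. Of 34 tested of 37, 11 rose and 1 fell, against 8.0% and 12.3% of all genes, with a median of 0.87. Cdc6, which licenses replication origins, had 4124, 3897 and 3501 normalized counts in Lep libraries and 1234, 1077 and 879 in Par libraries (1.86 ± 0.19, limma adjusted p = 1.78e-05). Ccne1 (cyclin E1) had 2405, 2137 and 1752 in Lep libraries and 716, 752 and 684 in Par libraries (1.54 ± 0.17), and Ccne2 rose by 1.65. Cdkn1b (p27), an inhibitor of the kinases that cyclin E activates, was the 1 that fell: it had 943, 1201 and 1448 in Lep libraries and 3447, 3236 and 2959 in Par libraries (-1.44 ± 0.15). Rrm2 and Tyms, of nucleotide supply, rose by 1.33 and 1.31. Mki67 (0.86) and Pcna (0.96) had no overlap between Lep and Par but missed the fold limit. BrM stood with Lep for Cdc6 (3059 to 3114) and Ccne1 (2046 to 2506), with Lep over BrM at 0.31 (adjusted p = 0.203) and -0.08 (adjusted p = 0.734), and Int stood lower (805 and 1476 for Cdc6, 977 and 1472 for Ccne1).

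**Figure D3:**
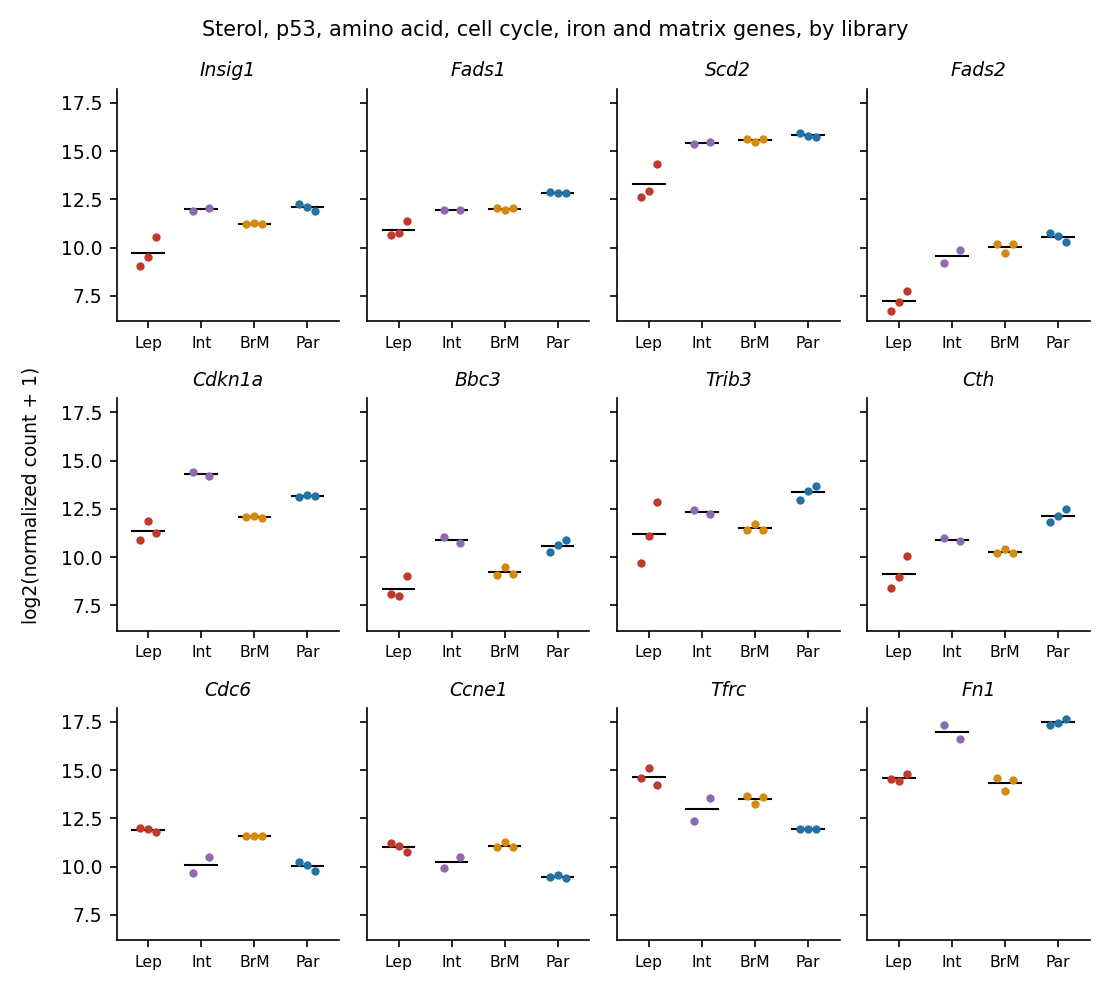
Log2 of the normalized count plus 1 (y axis) of 12 genes of lipid synthesis, p53 response, amino acid supply, cell cycle, iron uptake and matrix in each LLC library, with Lep, Int, BrM and Par from left to right in each panel, points for libraries and bars for the group means of the log2 values. Insig1, Fads1, Scd2, Fads2, Cdkn1a and Fn1 are lower in all 3 Lep than in all 3 Par libraries, and Tfrc, Cdc6 and Ccne1 are higher.

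Hypoxia and glycolysis genes showed 8 falls and 2 rises among 34 tested of 36 (median -0.40), against 12.3% and 8.0% of all genes. Vegfa, the vessel growth factor, had 2219, 4046 and 4350 normalized counts in Lep libraries and 9471, 10560 and 13310 in Par libraries (-1.70 ± 0.22, limma adjusted p = 8.64e-05). Egln3, the oxygen-sensing hydroxylase that hypoxia induces, fell by 1.95, Adm (adrenomedullin) by 1.86 and Eno2, a neuronal enolase, fell by 2.24. Car12, a carbonic anhydrase at the cell surface, rose: it had 1106, 844 and 737 in Lep libraries and 114, 116 and 113 in Par libraries (2.94 ± 0.18, adjusted p = 3.88e-07). Pfkfb3, which drives glycolysis, rose by 1.25. Ldha, lactate dehydrogenase A, was higher without reaching the fold limit (0.85).

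Growth factors and their receptors went both ways, 7 up and 8 down among 34 tested of 44 (median -0.01). Over all genes tested, 8.0% rose and 12.3% fell. Igfbp7, which binds insulin-like growth factors, had 398, 1272 and 214 normalized counts in Lep libraries and 31.3, 39.8 and 23.8 in Par libraries, a rise of 3.90 (3.20 without Lep replicate 2). Fgf7, a growth factor for epithelia, had 2344, 3653 and 2787 in Lep libraries and 1010, 1017 and 1043 in Par libraries and rose by 1.49 ± 0.15 (limma, adjusted p = 1.64e-05). Erbb3, a neuregulin receptor, fell by 1.64 and Bdnf, a neurotrophin, by 1.49.

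Of 27 TGF-beta and YAP target genes tested of 29, 7 rose and 4 fell, against 8.0% and 12.3% of all genes. Without Lep replicate 2, 4 rose. Ctgf, a matricellular protein, had 148, 327 and 71.7 normalized counts in Lep libraries and 10.7, 7.97 and 3.57 in Par libraries (4.29 ± 0.55, limma adjusted p = 7.45e-05). Id1, an inhibitor of differentiation that BMP induces, had 2257, 8070 and 1356 in Lep libraries and 839, 746 and 577 in Par libraries, and Lep replicate 2 was the highest (2.03, or 1.30 without it). Smad6, a BMP inhibitor, behaved alike (1.92, or 1.22 without Lep replicate 2). Tgfbi (-1.72), Nedd9 (-2.38) and Inhba (-2.33) fell. In Int and BrM, Nedd9 and Tgfbi were as low as in Lep (142 to 230 for Nedd9, 231 to 440 for Tgfbi).

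Among 35 Wnt, BMP and Notch genes tested of 48, 8 rose and 7 fell (median 0.15), against 8.0% and 12.3% of all genes. Wnt10b, a Wnt ligand, had 537, 350 and 349 normalized counts in Lep libraries and 71.1, 83.7 and 77.3 in Par libraries (2.37 ± 0.22, limma adjusted p = 7.15e-06), and Wnt10a had 17.9, 40.9 and 13.3 in Lep libraries and 0 to 2.13 in Par libraries (3.54). The Wnt receptor Fzd1 rose by 2.31 and Fzd2 fell by 4.28, with 12.8, 7.67 and 8.43 for Fzd2 in Lep libraries and 241, 219 and 155 in Par libraries. Dkk2, a secreted Wnt regulator, had 612, 607 and 1564 in Lep libraries and 16510, 14930 and 15140 in Par libraries, and fell by 4.21 ± 0.31 (adjusted p = 1.37e-06). Frzb, a Wnt antagonist, had 58.8, 55 and 636 in Lep libraries and 1030, 927 and 908 in Par libraries (-2.89; -2.29 without Lep replicate 2, -4.04 without Lep replicate 3). Bmper, a BMP regulator, rose by 3.12 (3.70 without Lep replicate 1, 2.28 without Lep replicate 2), and the Notch ligand Jag1 rose by 1.77.

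Axon guidance genes showed 14 falls and 3 rises among 38 tested of 49, against 12.3% and 8.0% of all genes. The median was -0.47, or -0.68 without Lep replicate 2. Sema4c, a semaphorin that signals through plexin-B receptors, had 492, 619 and 799 normalized counts in Lep libraries and 5981, 5606 and 5576 in Par libraries (-3.19 ± 0.18, limma adjusted p = 1.72e-07). Its receptor family member Plxnb1 had 8.95, 16.6 and 4.92 in Lep libraries and 60.5, 71 and 72.5 in Par libraries (-2.76 ± 0.38). Ephb6, an Eph receptor without kinase activity, fell by 3.85. Nrp1, a co-receptor of class 3 semaphorins and VEGF, rose by 1.36 and Sema3c by 1.30, with 571, 580 and 513 for Sema3c in Lep libraries and 224, 214 and 234 in Par libraries. Sema4a rose by 2.25 (2.84 without Lep replicate 3).

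The lists of drug and redox defence genes and of S100 and annexin genes held few calls. Over all genes tested, 8.0% rose and 12.3% fell. Of 40 drug and redox defence genes tested of 46, 2 rose (Abcb1b and Cbr2) and 1 fell (Gstm1), and over the alternatives 1 to 5 rose and 1 to 3 fell. Abcb1b, a drug efflux pump, was called at 1.13 and not without Lep replicate 2 (0.77), and Gstm1, a glutathione transferase, had 1808, 801 and 1680 normalized counts in Lep libraries and 5035, 4309 and 3770 in Par libraries (-1.69 ± 0.27, limma adjusted p = 0.000342). Of 14 S100 and annexin genes tested of 19, none rose and 2 fell, with 0 to 1 higher and 0 to 2 lower over the alternatives. S100a16 had 6.39, 0 and 9.14 in Lep libraries and 61.2, 51.8 and 51.1 in Par libraries (-3.72; -2.68 without Lep replicate 2, -4.35 without Lep replicate 3). Among 8 neural and glial markers tested of 18, 2 rose and 3 fell, or 25% and 37.5%, larger shares than over all genes. Those that rose were Slc1a3, a glutamate transporter, at 2.33, and Tubb3 at 1.59. Without Lep replicate 2 or any Par library, 1 was lower.

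**Figure D4:**
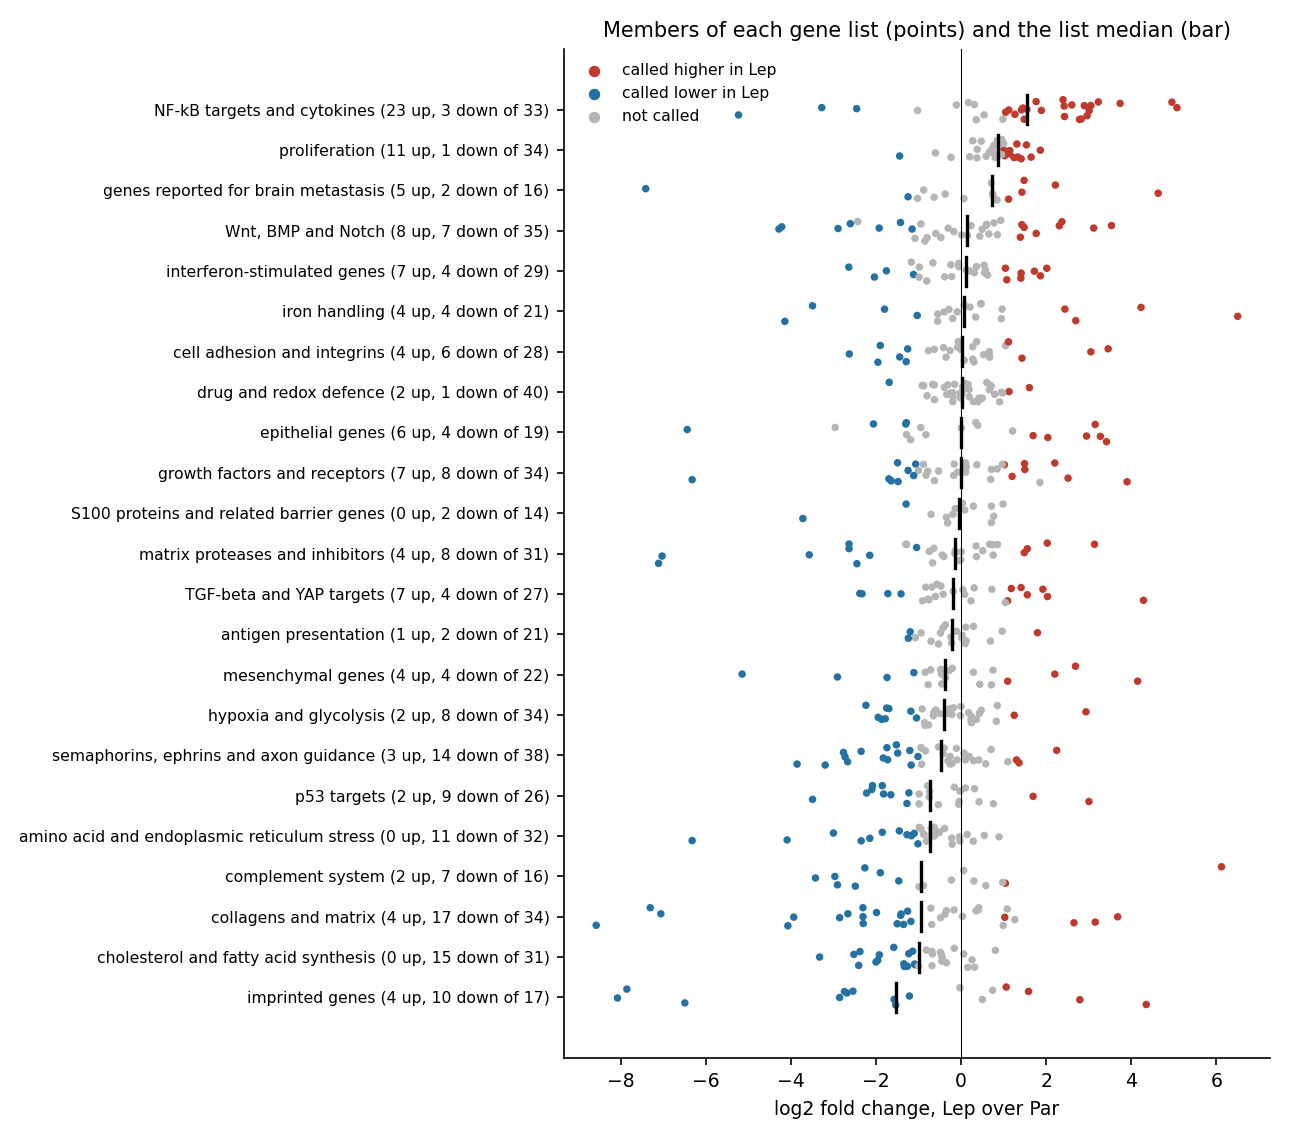
Log2 fold change of Lep over Par (x axis) for every tested member of the 23 gene lists (y axis, 1 row per list), red where called higher, blue where called lower and grey where not called, with a black bar at each list's median. The medians run from -1.54 for imprinted genes to 1.55 for NF-kB targets and cytokines, around 0.003 for all genes tested.

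Imprinted genes, which are read from only the maternal or only the paternal copy, held some of the deepest changes. Of 17 tested of 28, 10 fell and 4 rose (median -1.54), against 12.3% and 8.0% of all genes. H19, a maternally expressed noncoding RNA, was at 0 in all Lep libraries, against 270, 244 and 295 normalized counts in Par libraries, at least 268-fold lower with 3 reads over the Lep group as the floor. It was at 0 in BrM too, and at 162 and 10.7 in Int. Grb10, an adaptor that dampens insulin signalling, had 6.39, 15.3 and 16.2 in Lep libraries and 2835, 2959 and 3066 in Par libraries, and fell by 7.86 ± 0.33 (limma, adjusted p = 2.33e-08). Unlike H19, Grb10 was kept in BrM (3819 to 5512; Lep over BrM -8.56) and in Int (2827 and 1299). Ndn (necdin) was at 0 in Lep and at 97.5, 98.2 and 73.7 in Par libraries, at least 89.4-fold lower.

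Less complete losses were seen for Peg3, a zinc finger gene (334, 431 and 182 in Lep libraries, 2174, 1776 and 1802 in Par libraries, -2.68), and for the neighbours Peg10 (-2.54) and Sgce (-2.74). Igf2r, the receptor that clears IGF2, fell by 1.54 and Airn, the noncoding RNA that overlaps it in antisense, by 1.58. The library kit kept no strand, so reads of overlapping genes such as Igf2r and Airn, or Kcnq1ot1 and its host, cannot be told apart by strand. Plagl1, a zinc finger regulator of other imprinted genes, had 146, 172 and 33.7 in Lep libraries and 3.56, 3.98 and 3.57 in Par libraries (4.35 ± 0.53, limma adjusted p = 5.4e-05; 5.09 without Lep replicate 3). Phlda2 rose by 2.79 and Mest by 1.59, and Kcnq1ot1 by 1.06, a call lost without Lep replicate 1, Lep replicate 2 or Par replicate 2.

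The HOX genes were gathered after their values were seen, because 3 of the 12 deepest losses were HOX B genes, and no test is given for them as a family. HOX genes encode the transcription factors that fix position along the body axis, in 4 clusters. Of 10 HOX B genes listed, 9 were tested, and all 9 were lower in Lep with no overlap, against 31.8% of all genes whose Lep libraries all lay below the Par libraries. Hoxb2 was at 0 in all Lep libraries and had 316, 317 and 302 normalized counts in Par libraries, Hoxb3 was at 0 and had 336, 315 and 344, and Hoxb9 was at 0 and had 139, 169 and 206. These are at least 310-fold, 330-fold and 171-fold lower in Lep with 3 reads over the group as the floor (limma, adjusted p = 2.73e-10, 2.3e-10 and 2.82e-09). Hoxb4 had 0, 2.56 and 2.11 in Lep libraries and 243, 247 and 292 in Par libraries. Hoxb7 had 1 read over the Lep libraries and 164 to 172 normalized counts in Par libraries, a ratio of 506 with a counting interval of 90.5 to 20000. Hoxb13 had few reads in any library (0 in Lep, 5.95 to 10.7 in Par libraries).

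The whole cluster summed to 1.28 to 5.11 normalized counts in Lep, 1033 to 1123 in Int, 1911 to 2177 in BrM and 1622 to 1744 in Par libraries. Near-complete loss of HOX B transcripts was thus measured in Lep and in neither of the other derivatives, although the sum in Int lay below every Par library and Hoxb5 was lower than in Par (145 to 175) in both Int (59.7 and 34.3) and BrM (53.3 to 78.6). HOX C ran the other way between derivatives, with a sum of 426 to 500 in Lep, 89.3 to 226 in Int, 1.27 to 3.29 in BrM and 197 to 226 in Par libraries. In that cluster Hoxc8 had 84.3, 94.6 and 45 in Lep libraries and 5.69, 9.29 and 0 in Par libraries, a rise of 4.14 that was 3.12 without Par replicate 3 and 4.80 without Par replicate 2, and Hoxc5 rose by 1.62. The 11 HOX A genes and 5 of the 9 HOX D genes passed the filter on low values, and those 16 were detected in every LLC library, while the other HOX D genes were at or near 0. Hoxa5 fell by 1.75 ± 0.18 (limma, adjusted p = 1.72e-05) and Hoxd8 by 1.34, and 9 of the 11 HOX A genes were not called.

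**Figure D5:**
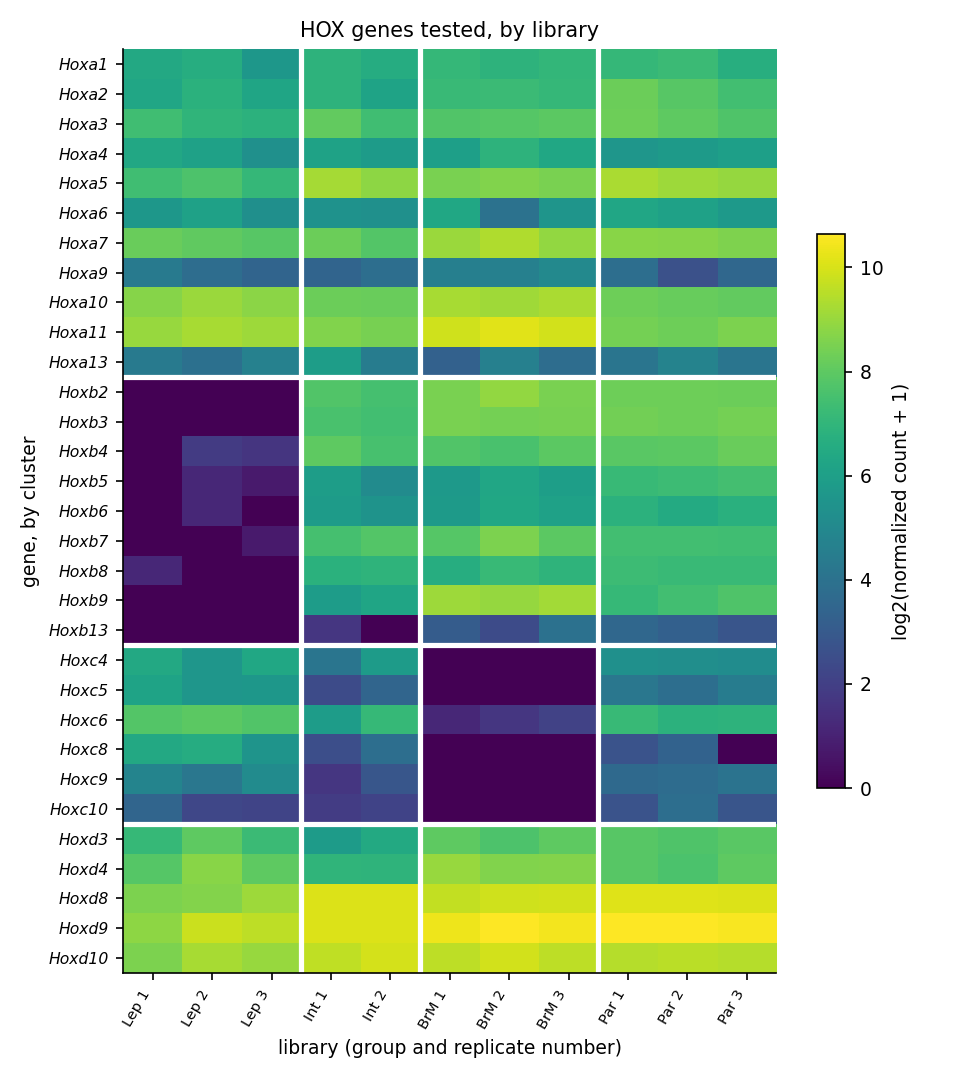
Log2 of the normalized count plus 1 (colour) of the 31 tested HOX genes (rows, by cluster) in each LLC library (columns: Lep, Int, BrM, Par). The HOX B rows are at the dark end of the scale in the 3 Lep columns and bright in most Int, BrM and Par columns, and the HOX C rows are dark in BrM.

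Single genes outside any list completed the strongest rises. Afp (alpha-fetoprotein), a fetal plasma protein, had 975, 832 and 408 normalized counts in Lep libraries and 5.69, 8.63 and 8.32 in Par libraries (6.36 ± 0.34, limma adjusted p = 1.53e-07), above Int (99.2 and 155) and BrM (132 to 212). Pou2f2 (Oct-2), a transcription factor of B cells, had 243, 422 and 328 in Lep libraries and 7.11, 5.31 and 7.13 in Par libraries (5.44 ± 0.39), and it was high in Int (731 and 454) and low in BrM (2.18 to 8.23). For both genes the lowest Lep library stood far above the highest Par library.

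The size of some other strong rises depended on single libraries, although none of the calls was lost when 1 library was left out. Selp (P-selectin), an adhesion receptor of endothelium and platelets, had 225, 4141 and 171 normalized counts in Lep libraries and 9.25, 5.31 and 3.57 in Par libraries. Its rise of 6.35 ± 0.89 (limma, adjusted p = 0.000141) was 4.89 without Lep replicate 2, 6.98 without Lep replicate 1 and 7.18 without Lep replicate 3. DESeq2 gave no adjusted p for Selp, so it could not be called there. Another endothelial marker, Tie1, had 7.67, 51.1 and 6.33 in Lep libraries and 0 in Par libraries, and its part in the Selp value was not tested. U90926, a noncoding RNA, had 28.1, 265 and 9.84 in Lep libraries and 2 reads over the Par libraries (log2 fold change 4.82; 3.52 without Lep replicate 2, 5.82 without Lep replicate 3).

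Other genes among the deepest losses left few or no reads in Lep. Sox11, a transcription factor of neural progenitors, had 1 read over the Lep libraries and 282, 297 and 332 normalized counts in Par libraries, a ratio of 895 with a counting interval of 160 to 35400. Tmem47, a junction membrane protein, had 1 read in Lep and 393, 422 and 428 in Par libraries (ratio 1230, interval 221 to 48700), and it was at 0 to 1.65 in BrM. Armcx2 had 2 reads in Lep and 432, 417 and 378 in Par libraries (ratio 618, interval 171 to 5110), and Sdk1, a synaptic adhesion protein, had 2 reads in Lep and 262, 261 and 272 in Par libraries (ratio 394, interval 109 to 3260). Both were close to 0 in BrM as well, at 0 to 4.94 for Armcx2 and 0 for Sdk1.

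Pcdhga10, one of the clustered protocadherins that give neurons their surface identity, had 2.56, 3.83 and 0 in Lep libraries and 465, 415 and 348 in Par libraries (-7.30; -6.62 without Lep replicate 3; limma, adjusted p = 9.16e-07). The family was looked up after that value was seen, and no test is given for it. Of 30 protocadherins tested of 58 in the table, 25 fell, against 12.3% of all genes, and none rose, with a median of -2.70. With genes of a mean under 50 left out, 9 were tested and 8 fell, and with no filter on low values 47 were tested and 31 fell. Pcdhac2 was at 0 in Lep and at 120, 130 and 149 in Par libraries, at least 132-fold lower, while Pcdhgc3 had 3714, 3066 and 3132 in Lep libraries and 6927, 6367 and 6088 in Par libraries (-0.97). Gamma and alpha genes share their last exons and many copies are near-identical, so the split of reads between members is uncertain.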

How the data were processed

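Polyadenylated RNA of cultured LLC stages (500 ng input, TruSeq RNA kit without strand information, paired reads of 50 bases, per the labels) was sequenced. The authors deposited normalized counts per gene, a signal equal to reads divided by 1 size factor per library. Per the submitters' processing notes, tools included FastQC 0.11.3, HTSeq 0.5.4 and DESeq2, with mm10; the sources used here do not name an aligner. Dividing by the value of 1 read gave whole reads for 100% of values (tolerance 0.01), which supplied library totals (18029707 to 67939274 over the 11 LLC libraries) and count-based alternatives. The depth behind each value is that total, and intervals and floors (3 reads over a group) cover counting error only.

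Log2 values (pseudocount 1) of the 13494 genes at 10 or more in at least 2 libraries were fitted with limma 3.58.1 (R 4.3.3, trend) on all 11 LLC libraries, two-sided, with Benjamini-Hochberg adjustment. A gene was called at an adjusted p under 0.05 and a fold change of at least 2. Comparisons were Lep with Par and, as context, Lep with Int and Lep with BrM. edgeR 4.0.16 and DESeq2 1.42.0 were run on the recovered reads as alternatives. On simulated Lep and Par counts of 13494 genes the limma fit recovered 93% of genes changed 4-fold and 83% of those changed 2.83-fold. Only 100 genes were changed at each size, with independent libraries and the same spread in every group. In the data 20.3% of genes were called, Lep libraries varied more than Par libraries, and Par libraries were technical replicates. The simulated shares are therefore not the recovery of this comparison.

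Genes were named by a rule: the 12 largest changes in each direction among called genes without overlap and with a mean of at least 100 (predicted genes left out), then up to 3 called members per direction of each of 23 lists with a mean of at least 20, and C3, Lcn2 and Slc22a17 in any case. Other members named were chosen after their values were seen. Some genes that the rule names are not reported here. The members and lists were chosen with earlier results of these data known. No coordinates or sequences are given, since no mouse genome was used here.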

Additional observations from a re-analysis of the deposited data

How the results depend on the processing

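Counts of called genes kept within 1.5 times of the values given under most settings tried: a pseudocount of 5, no filter on low values, quantile and TMM scaling, only the groups compared, robust variance estimates, the fit without Int, edgeR (1160 higher, 1620 lower in Lep than in Par) and DESeq2 (1127 higher, 1540 lower). Exceptions were a minimum mean of 50, with 628 genes higher in Lep than in Par, 732 than in Int and 891 than in BrM, and 745 higher than in Int without Int replicate 1; the stricter minimum tests fewer genes, and in the other case the cause was not tested. Leaving out 1 library gave 942 to 1326 higher and 1539 to 1813 lower for Lep with Par, 745 to 1331 and 1439 to 2038 for Lep with Int, and 1192 to 1668 and 737 to 1107 for Lep with BrM; the lone Int library left is assumed to vary like the other groups. Higher genes made up 39.5% of calls with Par, 37.6% with Int and 61.9% with BrM, and 49.1%, 48.5% and 53% under quantile scaling. Replicate numbers did not pair the libraries (correlations of -0.03, 0.02 and 0.01 between same-numbered Lep and Par libraries), and a replicate block gave 1075 higher and 1647 lower with Par, 1186 and 1918 with Int, and 1496 and 916 with BrM. Of 125 genes named by rule, all kept their direction over 17 settings and 116 their call. Abcb1b, C3ar1, Frzb, Gbp3, Itgb8, Lox, Mmp2, Selp and Steap2 lost it under at least 1 setting. Frzb and Selp lost it under DESeq2 only, which gave no adjusted p for either gene. Without 1 library, 32 of the 125 moved by over 1.5 times, 22 of them without Lep replicate 2. Genes under about 10 normalized counts were limited by depth.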

Other observations

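Of the genes of serotonin handling, Slc6a4 alone was among the 12 largest rises. The others were gathered after that was seen, so no test of the family is given. Of 8 tested of 22 in the table, 6 rose in Lep and none fell. Slc6a4, Tph2, Htr1b and Htr2b reached a normalized count of 10 in Lep libraries only, so they passed the filter on low values through Lep. The count of rises was thus in part set by the filter, and the 8.0% of all genes that rose is no measure for it. With genes of a mean under 50 over the 11 LLC libraries left out, which removed all 6, 2 were tested and neither was called, and leaving out 1 library gave 5 or 6 that rose. Slc6a4, the serotonin transporter, had 188, 239 and 40.8 normalized counts in Lep libraries, against 2.13, 1.33 and 4.76 in Par libraries (log2 fold change 5.15 ± 0.67, limma adjusted p = 7.95e-05; 5.94 without Lep replicate 3). Tph2, the rate-limiting enzyme of serotonin synthesis in neurons, had 55, 139 and 70.3 in Lep libraries and 3.56, 2.66 and 0 in Par libraries (5.01 ± 0.64, adjusted p = 7.17e-05; 4.34 without Par replicate 3). Neither gene was at such levels in Int (8.22 and 2.81 for Slc6a4, 3.29 and 3.94 for Tph2) or BrM (2.54 to 8.23 and 0 to 1.65). The receptor Htr2a had 8.95, 43.5 and 31.6 in Lep libraries and 2 reads over the Par libraries, a ratio of 54 with a 95% counting interval of 14.5 to 453. Htr1b had 7.67, 34.5 and 13.3 in Lep libraries and 3 reads in Par (ratio 21.8, interval 7.05 to 109). Ddc, the enzyme that completes serotonin, was at 0 to 1.28 in Lep and at 0 in Par libraries. Slc18a1, a vesicle transporter, was called at 1.48 and lost the call without Lep replicate 2 or any Par library.

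Of 7 tested genes around the aryl hydrocarbon receptor, of 8 looked up after Cyp1a1 was seen, 2 rose, Cyp1a1 itself and Cyp1b1. Cyp1a1 prompted the look-up, so only Cyp1b1 adds to what was already seen. The 8.0% of all genes that rose is therefore no measure for this count, and no test of the family is given. Cyp1a1, a monooxygenase of xenobiotics, had 46, 322 and 22.5 normalized counts in Lep libraries and 3 reads over the Par libraries, a ratio of 134 with a counting interval of 45.4 to 653; the log2 fold change of 5.48 came to 4.38 when Lep replicate 2 was left out and to 6.27 when Lep replicate 3 was. Cyp1b1, of the same family, had 148, 270 and 49.2 in Lep libraries and 5.69, 10.6 and 8.32 in Par libraries (3.82 ± 0.54, limma adjusted p = 0.000151; 4.48 without Lep replicate 3). In BrM, Cyp1a1 had 8.73 to 14.8 and Cyp1b1 65.5 to 95.1. The receptor Ahr (0.43) and Ahrr, Nqo1 (0.60) and Tiparp (0.58) were not called.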
